A study of Ostreococcus tauri with 84 samples.

Results

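The comparison described here is the step from night to dawn in Ostreococcus tauri grown under Long Day (LD), that is, the 3 libraries of ZT0 against the 3 libraries of ZT20, across all 7668 genes of the expression table. ZT is zeitgeber time in hours after lights on. These 6 libraries are 6 of the 84 samples of the series and were chosen by their time and photoperiod labels alone. O. tauri is a single-celled green alga of very small size with a compact genome, and the strain was RCC4221 without any transgene or added agent. Cultures were kept in column photochemostats, vessels in which, per the study's methods, fresh medium was added during the light period and overflow kept the volume constant. The LD regime had a 16 h day followed by an 8 h night, so that ZT20 lies in the middle of the night, and ZT0 was sampled as the light came on. For comparison, Short Day (SD) cultures had an 8 h day before a 16 h night, with 3 libraries at each time, and both constant light (LL) and constant darkness (DD) followed a period of LD, with 2 libraries at each time. The study left the first day of LL and DD unsampled. It kept LL at the highest light level of the day, whereas the light of LD and SD rose and fell gradually. Per the study, the numbered libraries of a time point came from consecutive days, and the labels do not say that they came from separate cultures, so p-values measure the spread between these samples, which may be technical. LD and SD were separate cultures, hence photoperiod and culture cannot be told apart. A change in a transcript per cell and a change in how many cells were in a given state cannot be told apart either.

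In green algae, dawn is the point at which the dark metabolism of stored carbon gives way to photosynthesis. Plants and algae are known to prepare for it with a circadian clock, whose core in O. tauri consists of CCA1 and TOC1, a pair of genes that regulate each other. The Calvin cycle fixes carbon with the energy of light, and tetrapyrrole and carotenoid synthesis supply the pigments. Cell division in algae grown under light and dark cycles is known to be tied to the time of day. Per the study, which followed the cell cycle by DNA content, ZT20 lay in S phase and ZT0 in the G2 and M phase under LD.

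Among the 6 libraries, LD ZT0 number 3 stood apart. It listed 699 genes at 0, against 117 and 139 in the other ZT0 libraries and 103, 99 and 279 at ZT20. Its log values correlated with the other ZT0 libraries at r = 0.846 and 0.849, whereas those correlated with each other at r = 0.980 and the ZT20 libraries among themselves at 0.928 to 0.964, all across genes. In it, 136 genes shared 1 product of FPKM and gene length within 1%, the value that a single read would give in a library of about 507000 reads. Similar steps gave about 388000 reads for LD ZT4 number 3 and 136000 for LD ZT8 number 3, with 913 and 1007 genes at 0, and both enter the fit that sets the spread. All values are FPKM (fragments scaled to gene length and to the mapped fragments of the library), a level per gene length, and changes are fitted differences of log2(FPKM + 1), ZT0 minus ZT20. The median change over all genes was −0.29 in LD, and it became −0.03 when each library was rescaled by the median of its ratios to the gene-wise means (median-ratio scaling) and −0.18 without ZT0 number 3. A fall is therefore to be read against a general shift of that size. CCA1 and TOC1, used as a check of the time labels, are described below with their values.

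Under LD, 277 genes were higher and 1044 lower at ZT0 than at ZT20, with adjusted p under 0.05 in limma (Benjamini-Hochberg over all genes). These are 3.61% and 13.6% of the genes tested, 17.2% in all, and 2212 genes had an unadjusted p under 0.05. Of the 277 and 1044, 221 rose and 830 fell by more than 1 on the log2 scale. Falls made up 79.0% of the calls, and 59.8% after median-ratio scaling, which gave 434 higher (5.66%) and 646 lower (8.42%). Without ZT0 number 3 there were 271 higher (3.53%) and 783 lower (10.2%), and without ZT20 number 2 the lower count was 687. All 277 risen genes were also called after median-ratio scaling and 228 of them without ZT0 number 3. Of the 1044 fallen genes, 646 were also called after median-ratio scaling and 725 without ZT0 number 3, and 593 passed under both. The plot of change against level shows risen genes over the whole range of expression and fallen genes reaching lower.

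**Figure D1:**
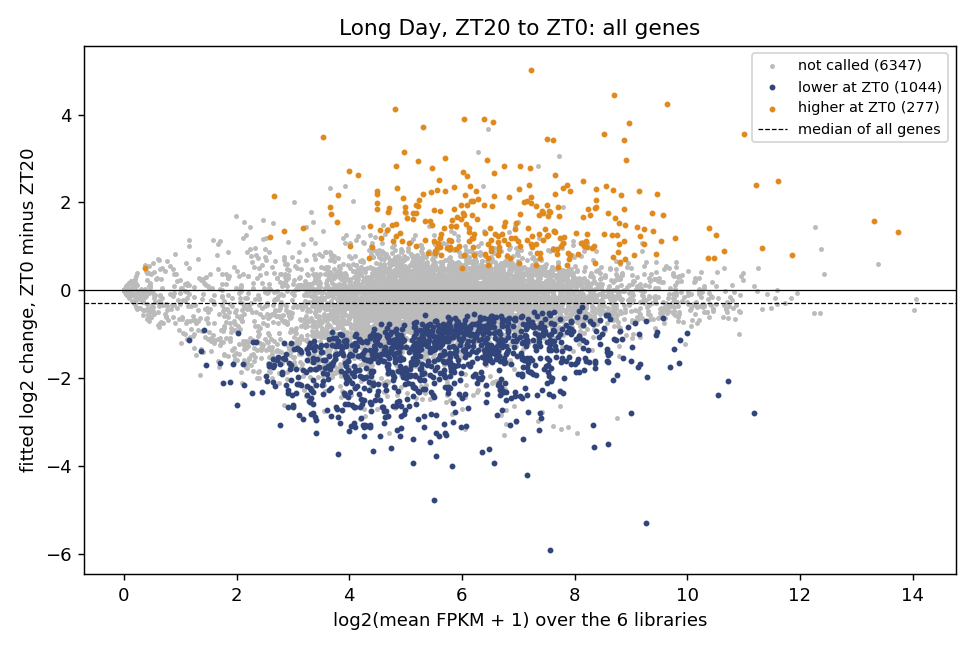
Fitted change from ZT20 to ZT0 under Long Day (log2 units, vertical axis) against log2 of the mean FPKM + 1 over the 6 libraries (horizontal axis), 1 point per gene. The 277 genes called higher are orange, the 1044 called lower are blue, and the dashed line marks the median of all genes at −0.29.

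Groups that did not overlap, with all 3 ZT0 values above all 3 ZT20 values, were found in 648 genes (8.45%), and with all below in 2118 genes (27.6%). Over the LD day, the mean level of the 277 risen genes was highest at ZT4 for 127, at ZT0 for 76 and at ZT8 for 70 of them. For the 1044 fallen genes the highest mean fell at ZT16 for 410, at ZT12 for 372 and at ZT20 for 120. Most of the fallen genes were thus already below their highest mean at ZT20. The selection itself kept fallen genes from peaking at ZT0 and risen genes from peaking at ZT20. The same distribution over all genes was not set beside these counts. Of the 1044, 108 genes were listed at 0 in ZT0 number 3, beside 699 of all 7668 genes.

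The strongest rises included several regulators of transcription. A gene with a Dof-type zinc finger, a plant family of DNA-binding proteins, had 39.6, 49.9 and 15.9 FPKM at ZT20 and 465, 579 and 1349.5 FPKM at ZT0 (ostta08g01730). It changed by 4.45 ± 0.58 (SE) with adjusted p = 9.3e-05 in limma. A second Dof-type gene, ostta04g02850, was listed at 42.4, 47.5 and 15.4 FPKM at ZT20 and 267, 387 and 413 FPKM at ZT0, a change of 3.43 (limma adjusted p = 0.000604). The plant-type Myb gene ostta03g02980 had the smallest fitted SE among the 10 strongest rises, with 62.4, 113 and 66.7 FPKM at ZT20 and 1359.7, 1818 and 1363 FPKM at ZT0 and a change of 4.25 ± 0.22 (SE) (limma adjusted p = 5.01e-08). All 3 of these genes reached their highest LD mean at ZT0. Over the 58 members of transcription factor families in the annotation, 6 rose and 9 fell, beside 3.61% and 13.6% of all genes. The share that fell, 15.5%, lay near that of all genes. After median-ratio scaling 8 rose and 5 fell, beside 5.66% and 8.42% of all genes. Further rises were a SANT/Myb gene, ostta13g00110 (change 2.28, limma adjusted p = 0.000155), and a gene with an RWP-RK domain, ostta05g02380 (change 1.13, limma adjusted p = 0.00295). Among the falls were a GATA-type zinc finger gene, ostta02g03440 (change -1.56, limma adjusted p = 0.00419), and the gene with a CRC domain, labelled CPP, ostta09g04220 (change -1.48, limma adjusted p = 0.00183).

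The largest rise of an annotated gene was that of ostta10g02860, a flavin amine oxidase, with 11.8, 14.2 and 2.53 FPKM at ZT20 and 221, 292 and 356 FPKM at ZT0. Its change was 5.02 ± 0.42 (SE) with limma adjusted p = 2.44e-06, and its lowest value at ZT20 was in number 3. A gene with a thioredoxin-like fold, ostta10g00200, a fold shared by proteins that exchange disulphides, went from near the bottom of the range to 54.9, 58.1 and 42.95 FPKM, from 2.70, 2.30 and 1.18 FPKM. It changed by 4.14 ± 0.33 (SE) (limma adjusted p = 1.47e-06). A rhodanese-like gene, ostta05g04850, reached the highest level of the 10, with 244, 359.9 and 359 FPKM at ZT20 and 3091, 4089.8 and 4181 FPKM at ZT0 and a change of 3.57 ± 0.25 (SE) (limma adjusted p = 7.4e-07). A gene with a cytochrome b5-like heme-binding domain, ostta05g00100, had 13.5, 23.2 and 3.55 FPKM at ZT20 and 127, 159 and 228 FPKM at ZT0 (change 3.84, limma adjusted p = 9.94e-05). Another, ostta15g00390, carries the beta-barrel of translation factors and ribosomal proteins and had 32.4, 33.7 and 22.8 FPKM at ZT20 and 267, 299.8 and 431 FPKM at ZT0 (change 3.43, limma adjusted p = 8.42e-05). The highest rise without a named annotation was that of ostta06g00140, with 6.07, 8.96 and 4.77 FPKM at ZT20 and 139.6, 178 and 52.3 FPKM at ZT0 (change 3.90, limma adjusted p = 0.000381). The rule that chose these genes allowed no overlap between times.

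Among the strongest falls, many values of the library that stood apart were 0. An ankyrin repeat gene, ostta08g01130, whose repeats mediate contacts between proteins, had 879.6, 1160.1 and 1349 FPKM at ZT20 and 151, 151 and 0 FPKM at ZT0. Its change was -5.29 ± 1.28 (SE) with limma adjusted p = 0.00946, and -2.87 (adjusted p = 5.03e-06) without ZT0 number 3. PCNA (ostta06g02890), the sliding clamp that holds DNA polymerase on its template, had 114, 156 and 147 FPKM at ZT20 and 31.5, 37.2 and 0 FPKM at ZT0, a change of -3.69 (limma adjusted p = 0.0134) and of -1.98 without that library. Of the 10 strongest falls of annotated genes, 7 were listed at 0 in ZT0 number 3. Besides these, they were an FKBP-type peptidyl-prolyl isomerase, which assists protein folding (ostta03g03420, -4.20, and -2.33 without the library), a P-loop NTPase (ostta04g03720, -3.93 and -2.89) and its neighbour on chromosome 4, a prenylated rab acceptor of membrane traffic (ostta04g03730, -3.77 and -2.47). A gene with a CAAD domain, ostta08g02960, changed by -3.61 with all libraries and by -1.83 without that library, and its call (limma adjusted p = 0.0175) was lost without ZT20 number 2 or 3 (0.0579 and 0.0602). The Dpy-30 motif gene ostta12g02940 changed by -4.005 (limma adjusted p = 0.0474), and its call was lost without ZT0 number 3 (adjusted p = 0.225) and after median-ratio scaling (adjusted p = 0.0725). It was also lost without ZT20 number 1, 2 or 3, with adjusted p of 0.0878, 0.098 and 0.137.

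Of the other strong falls, most had values above 0 in every library. The serine/threonine protein kinase gene ostta09g04190 had 51.6, 48.4 and 45.1 FPKM at ZT20 and 4.26, 3.96 and 1.64 FPKM at ZT0, a change of -3.59 ± 0.27 (SE) with limma adjusted p = 7.4e-07. A pair of genes with a high mobility group box, a domain that bends DNA, fell as well. The first, ostta06g00100, had 619.8, 781 and 716 FPKM at ZT20 and 96.96, 72.3 and 33.3 FPKM at ZT0 (change -3.49, limma adjusted p = 1.8e-05). The second, ostta05g03120, had 516, 647 and 496 FPKM at ZT20 and 140.0, 135 and 4.23 FPKM at ZT0 (change -3.57, and -1.99 without ZT0 number 3), so that its ZT0 spread came from that library. Its limma adjusted p was 0.0144, and 0.0519 without ZT20 number 2. The largest fall of a gene without a named annotation, ostta08g03950, was listed at 309, 338 and 328 FPKM at ZT20 and 156, 0 and 0 FPKM at ZT0, with limma adjusted p = 0.0176. Its call was lost without ZT0 number 3 or 2 and without ZT20 number 2 (limma adjusted p = 0.087, 0.0763 and 0.054). The plot of these genes by library shows how far the triangles of ZT0 number 3 lay below the other ZT0 points among the falls.

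**Figure D2:**
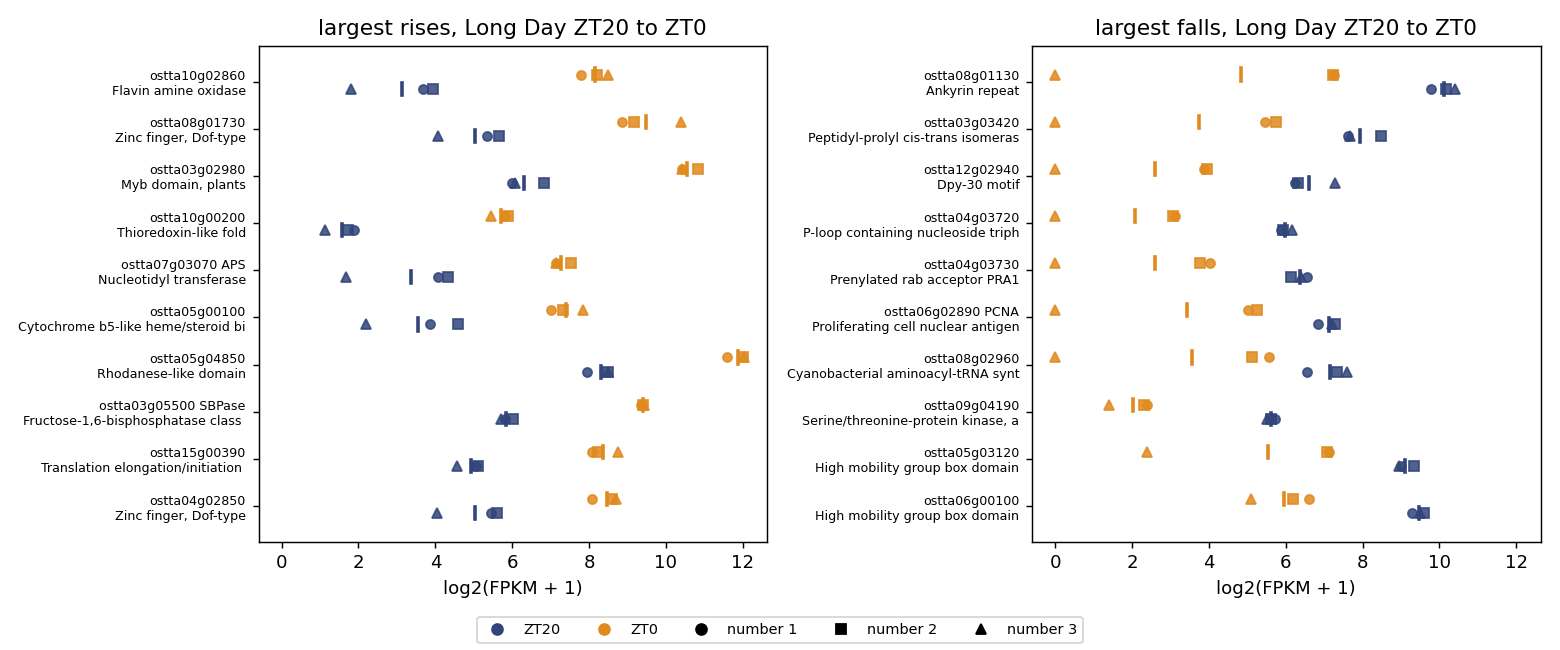
Values of log2(FPKM + 1) (horizontal axis) in the 6 Long Day libraries for the 10 strongest rises (left) and 10 strongest falls (right) of annotated genes. Blue is ZT20, orange is ZT0, the marker gives the library number and the vertical bar the mean of the 3 log values. Genes were chosen for groups without overlap, and 7 of the falls have a ZT0 number 3 value of 0.

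Many of the carbon fixation genes rose. Of 18 genes of the Calvin cycle and related enzymes, 10 rose and 0 fell (3.61% and 13.6% of all genes), and the median change of the list was 1.11 beside −0.29 over all genes. Without ZT0 number 3 the count of risen genes was 9, and after median-ratio scaling 11, beside 3.53% and 5.66% of all genes. Sedoheptulose-1,7-bisphosphatase, SBPase (ostta03g05500), which regenerates the carbon acceptor of the cycle, had 55.3, 63.5 and 51.4 FPKM at ZT20 and 656, 676 and 691 FPKM at ZT0. Its change was 3.55 ± 0.26 (SE) with limma adjusted p = 7.4e-07, and its LD mean was highest at ZT4. RCA (ostta04g02510), the activase that keeps Rubisco in its active form, had 159, 194 and 207 FPKM at ZT20 and 565, 906 and 1359 FPKM at ZT0 (change 2.25, limma adjusted p = 2.5e-05). A class 1 fructose-1,6-bisphosphatase gene, ostta03g00350, had 56.2, 69.5 and 54.6 FPKM at ZT20 and 220.3, 256 and 239 FPKM at ZT0 (change 1.98, limma adjusted p = 7.28e-06), and an aldolase gene, ostta04g04420, had 52.3, 60.9 and 50.5 FPKM at ZT20 and 199, 223 and 260.3 FPKM at ZT0 (change 2.04, limma adjusted p = 4.34e-06). All 4 of these genes were clear of overlap.

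RbcS encodes the small subunit of Rubisco, the enzyme that fixes carbon dioxide, and was among the most abundant transcripts at dawn. The copy ostta18g01880 had 3949, 6497 and 5036 FPKM at ZT20 and 13715, 16472 and 15078 FPKM at ZT0 (change 1.57, limma adjusted p = 0.0107). Its neighbour ostta18g01890 had 2036, 3299 and 2642 FPKM at ZT20 and 5701, 8266 and 7494 FPKM at ZT0 (change 1.44, limma adjusted p = 0.0578), which did not pass, although it did after median-ratio scaling (adjusted p = 0.039), after upper-quartile scaling (0.047) and with a filter of 1 FPKM (0.0426). These are adjacent copies with the same annotation and reads may have been divided between them, so the level of each is uncertain. Of the phosphoglycerate kinase genes, PGK, ostta06g00700 rose (change 1.84, limma adjusted p = 0.00217) and ostta02g02860 had 837, 827 and 199 FPKM at ZT20 and 601, 525 and 435 FPKM at ZT0, with overlapping groups. GAPDHA (ostta01g01560), which reduces the product of carbon fixation, had 411, 434 and 332 FPKM at ZT20 and 282, 499 and 715 FPKM at ZT0 and did not pass (limma adjusted p = 0.578).

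Many of the pigment synthesis genes rose as well. In tetrapyrrole synthesis, which leads to chlorophyll and heme, 13 of 23 genes rose and 4 fell, with a median change of 0.83 (without ZT0 number 3, 10 rose and 3 fell). Of all genes 3.61% rose and 13.6% fell, and 3.53% and 10.2% without that library. An ATPase-type magnesium chelatase gene, ostta01g05690, whose enzyme commits the pathway to chlorophyll, had 70.2, 70.8 and 74.6 FPKM at ZT20 and 356, 450.1 and 305 FPKM at ZT0 (change 2.33, limma adjusted p = 6.79e-07). Protoporphyrinogen oxidase, ostta06g03370, which makes the last intermediate shared by heme and chlorophyll, had 32.7, 31.9 and 22.9 FPKM at ZT20 and 122, 135 and 118 FPKM at ZT0 (change 2.08, limma adjusted p = 7.98e-06). Those that fell included ferrochelatase, ostta11g02670, the enzyme that inserts iron on the heme branch, with 154, 142 and 159 FPKM at ZT20 and 73.4, 74.2 and 68.7 FPKM at ZT0 (change -1.06, limma adjusted p = 0.000168), and a gene of the heme oxygenase type, ostta12g00790, with 14.7, 33.5 and 33.98 FPKM at ZT20 and 7.04, 3.90 and 9.90 FPKM at ZT0 (change -1.82, limma adjusted p = 0.0013). The former 2 were thus higher and the latter 2 lower at ZT0 in every library.

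Of 19 genes of carotenoid synthesis and of the MEP pathway, the plastid route to its precursors, 11 rose and 2 fell, with a median of 0.83. Without ZT0 number 3, 9 rose and 0 fell, with a median of 0.55. The shares over all genes were 3.61% higher and 13.6% lower, and 3.53% and 10.2% without that library. HDS (ostta09g00960), an enzyme late in the MEP pathway, had 78.6, 85.3 and 61.97 FPKM at ZT20 and 231, 206 and 324 FPKM at ZT0 (change 1.72, limma adjusted p = 4.45e-05). PSY (ostta05g03530), phytoene synthase, the entry to carotenoids, had 163, 187 and 186 FPKM at ZT20 and 347, 414 and 372 FPKM at ZT0 (change 1.08, limma adjusted p = 0.00256). LCY (ostta14g00700), which closes the rings of lycopene, changed by 1.39 (limma adjusted p = 0.00226) and ZEP (ostta16g00670), which makes violaxanthin, by 0.99 (limma adjusted p = 0.00946). VDE (ostta16g00660), which reverses that step in bright light, had 99.2, 115 and 87.9 FPKM at ZT20 and 61.7, 71.3 and 84.6 FPKM at ZT0 and did not pass (limma adjusted p = 0.0945). It was called lower in some alternatives. Limma adjusted p was 0.00661 with all 60 libraries, 8.55e-06 with array weights and 0.0111 with number 3 left out at every time.

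Among transcripts of the photosynthetic membrane, the light-harvesting list had a lower median than all genes, and the photosystem list a median near it. Of 24 light-harvesting protein genes, which encode the antenna, 3 rose and 11 fell, with a median change of −0.86. Only 5 fell after median-ratio scaling and 9 without ZT0 number 3. These counts, and those of the photosystem list below, stand beside 3.61% higher and 13.6% lower of all genes. The shares of all genes were 5.66% and 8.42% after that scaling and 3.53% and 10.2% without that library. One of the chlorophyll a/b binding genes, ostta09g04420, had 169, 247 and 163 FPKM at ZT20 and 71.4, 65.4 and 72.7 FPKM at ZT0 (change -1.43, limma adjusted p = 7.78e-05). The gene ostta14g00065 of the same family had 11.6, 16.6 and 5.78 FPKM at ZT20 and 42.03, 39.7 and 33.7 FPKM at ZT0 and rose (change 1.78, limma adjusted p = 0.000214). Among 30 genes of the photosystems and electron transport, 3 rose and 7 fell (3 and 4 after median-ratio scaling), with a median of −0.28 that was 0.00 after that scaling. The medians over all genes were −0.29 and −0.03. PsbP (ostta14g02630), a subunit of the oxygen-evolving complex, had 292, 351 and 278 FPKM at ZT20 and 75.9, 70.4 and 69.6 FPKM at ZT0 (change -2.07, limma adjusted p = 1.58e-05). Ycf4 (ostta06g03390), which helps to assemble photosystem I, had 121, 120.0 and 92.5 FPKM at ZT20 and 580.3, 669 and 421 FPKM at ZT0 (change 2.30, limma adjusted p = 9.74e-05). FNR (ostta18g01250), which passes electrons from ferredoxin to NADP, also rose (change 1.23, limma adjusted p = 0.002).

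Starch genes divided. Among 13 members, 3 rose and 6 fell, and after median-ratio scaling 3 rose and 4 fell. All genes together had 3.61% higher and 13.6% lower, and 5.66% and 8.42% after that scaling. APS (ostta07g03070), a subunit of ADP-glucose pyrophosphorylase, the first committed step of starch synthesis, had 15.7, 19.2 and 2.20 FPKM at ZT20 and 140.3, 183 and 139 FPKM at ZT0 (change 3.91 ± 0.63 (SE), limma adjusted p = 0.000573). APL (ostta07g03440), its other subunit, moved the opposite way, with 176, 131 and 81.4 FPKM at ZT20 and 37.97, 34.3 and 44.3 FPKM at ZT0 (change -1.65 ± 0.26 (SE), limma adjusted p = 0.000511). The starch branching enzyme SBE (ostta03g00870) rose (change 1.09, limma adjusted p = 0.0132), although not without ZT0 number 3 (adjusted p = 0.0587) or ZT20 number 3 (adjusted p = 0.0544). ISA (ostta02g05060), an isoamylase that trims branches, fell (change -1.92, limma adjusted p = 0.00092). BAM (ostta03g03180), a beta-amylase that degrades starch, had 405, 322 and 305 FPKM at ZT20 and 344, 376 and 337 FPKM at ZT0 with overlapping groups.

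**Figure D3:**
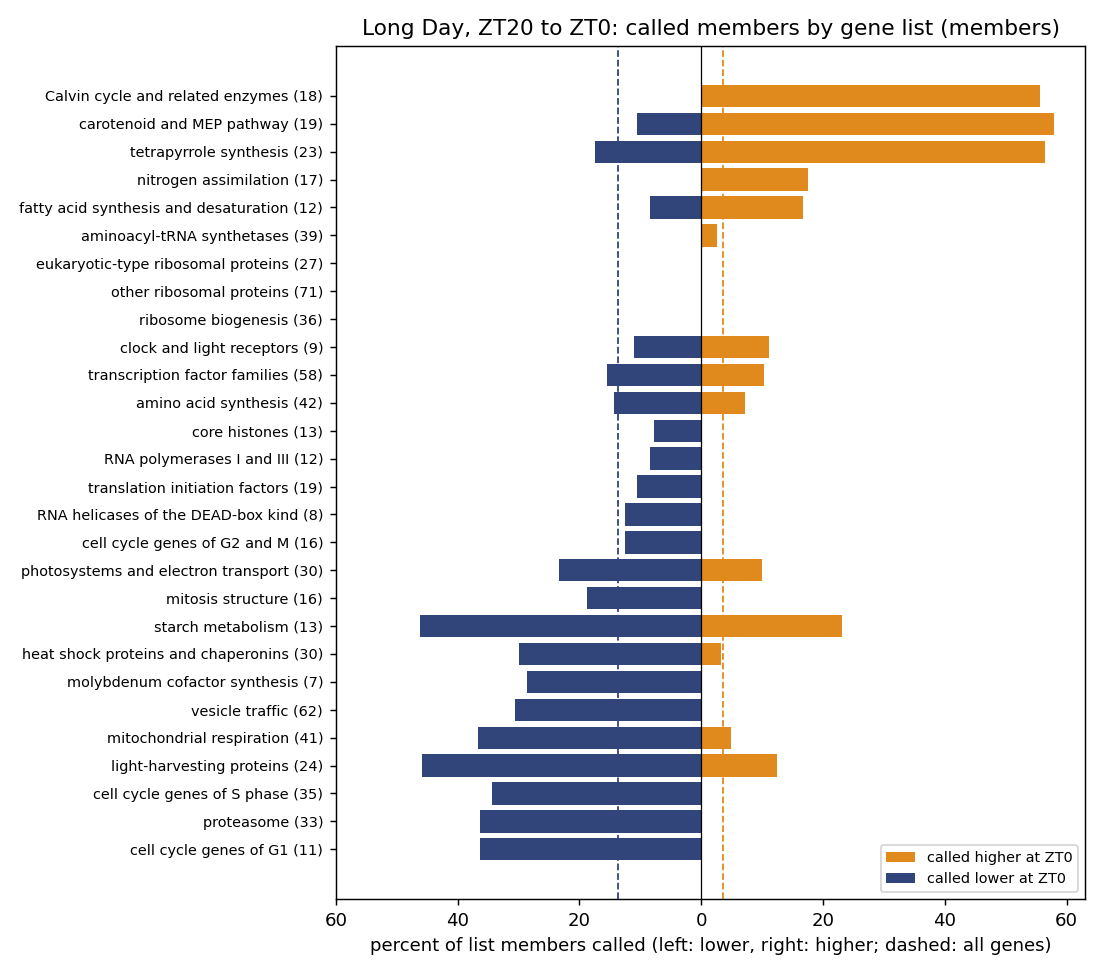
Share of the members of each gene list (percent, horizontal axis) called higher (orange, to the right) or lower (blue, to the left) at ZT0 than at ZT20 under Long Day, with the number of members in brackets. The dashed lines are the shares over all genes, 3.61% higher and 13.6% lower, and the Calvin cycle, carotenoid and tetrapyrrole lists reach furthest to the right.

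Genes of nitrate uptake and reduction rose, apart from NRT3. NRT2, NIR and NR lie together with NRT3 on chromosome 10 and carry nitrate into the cell and reduce it to ammonium. NR, nitrate reductase (ostta10g00920), had 205, 189.5 and 277 FPKM at ZT20 and 502, 581 and 887 FPKM at ZT0 (change 1.52 ± 0.27 (SE), limma adjusted p = 0.00114). NIR, nitrite reductase (ostta10g00930), had 226, 233 and 296 FPKM at ZT20 and 527, 514 and 787 FPKM at ZT0 (change 1.26, limma adjusted p = 0.0128), a call that was lost without ZT0 number 3 (adjusted p = 0.0591). The transporter NRT2 (ostta10g00950) had 662, 788 and 1176 FPKM at ZT20 and 1859, 1756 and 2520.3 FPKM at ZT0 (change 1.25, limma adjusted p = 0.00719). The NRT2 call was lost with all 60 libraries (limma adjusted p = 0.0806) and with only the 6 libraries (0.0581). NRT3 (ostta10g00940), the partner protein of NRT2, had 1942, 4156 and 5348 FPKM at ZT20 and 7027, 8131 and 5288 FPKM at ZT0. Its change of 0.94 did not pass (limma adjusted p = 0.0775), although it did in several alternatives. Adjusted p was 0.0268 without ZT20 number 3, 0.0304 after median-ratio scaling and 0.0389 after upper-quartile scaling. NRT2, NIR and NR were the only called members of 17 nitrogen assimilation genes, and 7 were called higher after median-ratio scaling. Beside this, 3.61% of all genes were called higher and 13.6% lower, and 5.66% and 8.42% after that scaling. The downstream enzyme glutamine synthetase, GS (ostta01g05020), had 717, 715 and 1087 FPKM at ZT20 and 832, 786 and 1272 FPKM at ZT0 with overlapping groups (limma adjusted p = 0.718).

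Among 9 clock genes and light receptors, 1 rose and 1 fell, beside 3.61% and 13.6% of all genes. TOC1 (ostta13g01820) had 47.4, 37.3 and 20.4 FPKM at ZT20 and 5.30, 5.56 and 3.38 FPKM at ZT0, a change of -2.59 ± 0.30 (SE) with limma adjusted p = 3.47e-05. The histidine kinase HK (ostta09g02190), listed with the light receptors, had 24.6, 29.00 and 19.6 FPKM at ZT20 and 135, 140.2 and 292 FPKM at ZT0 (change 2.82 ± 0.29 (SE), limma adjusted p = 1.8e-05). CCA1 (ostta06g02340) was high at both times, with 1214, 1084 and 852 FPKM at ZT20 and 1145, 1312 and 1101 FPKM at ZT0 (change 0.19 ± 0.36 (SE), limma adjusted p = 0.802), and had dropped to 23.6, 11.4 and 4.30 FPKM by ZT4. In this alga TOC1 is known to peak around dusk and CCA1 during the night. The cryptochrome CRY1 (ostta15g01000), a blue-light receptor, had 13.7, 9.60 and 9.21 FPKM at ZT20 and 11.4, 13.5 and 16.03 FPKM at ZT0 and did not pass (limma adjusted p = 0.771).

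Some genes of cell division fell at ZT0. In the G1 list 4 of 11 fell and 0 rose, in the S phase list 12 of 35 fell and 0 rose, and in the G2 and M list 2 of 16 fell and 0 rose, beside 13.6% lower and 3.61% higher among all genes, and the G2 and M share of 12.5% lower lay near that of all genes. After median-ratio scaling the S phase count was 8, beside 8.42% lower of all genes. CYCD (ostta18g01570), the cyclin of entry into the cycle, had 148, 139 and 84.4 FPKM at ZT20 and 27.2, 36.4 and 25.7 FPKM at ZT0 (change -1.996, limma adjusted p = 0.000201). The transcription factor subunit Dp (ostta10g01190) had 11.9, 14.7 and 20.9 FPKM at ZT20 and 1.53, 1.83 and 2.85 FPKM at ZT0 (change -2.44, limma adjusted p = 1.16e-05). SLD (ostta04g00390), part of the GINS complex of the replication fork, changed by -2.44 (limma adjusted p = 0.00208) and by -1.61 without ZT0 number 3, and the replicative helicase subunit MCM2 (ostta11g00910) by -1.58 (limma adjusted p = 0.00369). The mitotic kinase CDKB (ostta15g00670) had 229.9, 219 and 196 FPKM at ZT20 and 131, 132 and 181 FPKM at ZT0 and did not pass (limma adjusted p = 0.195). It was called lower with array weights (change -0.72, limma adjusted p = 0.00179). Of 13 core histone genes 1 fell, ostta02g00100, with 2698, 2832 and 2638 FPKM at ZT20 and 665, 767 and 536 FPKM at ZT0 (change -2.07, limma adjusted p = 0.00115), a gene that may share reads with other histone copies.

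Some genes of respiration, protein turnover and membrane traffic also fell. Of 41 mitochondrial respiration genes 15 fell and 2 rose, with a median of −0.73, and 12 fell after median-ratio scaling. The lists of this paragraph stand beside 13.6% lower and 3.61% higher of all genes. Those shares were 8.42% and 5.66% after that scaling and 10.2% and 3.53% without ZT0 number 3. A citrate synthase-like gene, ostta17g02090, had 389.9, 334 and 269.6 FPKM at ZT20 and 66.4, 50.6 and 67.7 FPKM at ZT0 (change -2.40 ± 0.27 (SE), limma adjusted p = 2.95e-05). An alternative oxidase, ostta16g00930, which passes electrons straight to oxygen, had 42.03, 54.5 and 47.7 FPKM at ZT20 and 15.8, 13.9 and 6.51 FPKM at ZT0 (change -1.98, limma adjusted p = 0.00114). Of 33 proteasome genes 12 fell and 0 rose, 5 after median-ratio scaling and 7 without ZT0 number 3, with an all-library median of −0.69. A subunit of the 26S particle, ostta03g02880, had 188, 168 and 129 FPKM at ZT20 and 57.9, 63.9 and 53.2 FPKM at ZT0 (change -1.44, limma adjusted p = 0.000176). In vesicle traffic 19 of 62 genes fell and 0 rose (12 fell and 1 rose after median-ratio scaling). A clathrin adaptor subunit, ostta17g01200, changed by -1.997 (limma adjusted p = 8.08e-05). Among heat shock proteins and chaperonins 9 of 30 fell and 1 rose, 5 and 2 after median-ratio scaling.

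Few translation genes were called. None of 36 ribosome biogenesis genes, 27 eukaryotic-type and 71 other ribosomal protein genes was called in either direction by limma, and 3, 0 and 1 of them were called higher after median-ratio scaling. Their medians were 0.16, −0.35 and −0.18 beside −0.29 over all genes. The ribosome biogenesis median was 0.43 after median-ratio scaling, beside −0.03 over all genes. In 9 of its 36 genes all ZT0 values lay above all ZT20 values, and in 1 all lay below, beside 8.45% and 27.6% of all genes. Of 39 aminoacyl-tRNA synthetase genes, which load amino acids onto tRNA, 1 rose and 0 fell, and 7 rose after median-ratio scaling. The shares over all genes were 3.61% higher and 13.6% lower, and 5.66% and 8.42% after that scaling. The one called, ostta01g04150, had 70.3, 64.3 and 82.4 FPKM at ZT20 and 303, 399 and 473 FPKM at ZT0 (change 2.41 ± 0.27 (SE), limma adjusted p = 3.15e-05). Fatty acid synthesis had 2 of 12 higher and 1 lower, beside 3.61% and 13.6% of all genes. A fatty acid desaturase gene, ostta03g03040, rose with 105, 111 and 48.8 FPKM at ZT20 and 434, 427 and 563 FPKM at ZT0 (change 2.49, limma adjusted p = 4.45e-05), and another, ostta12g01890, fell with 31.2, 30.2 and 29.03 FPKM at ZT20 and 6.96, 8.06 and 0 FPKM at ZT0 (change -2.90, limma adjusted p = 0.0098, and -1.87 without ZT0 number 3, whose call was lost with median-ratio scaling added, adjusted p = 0.0543).

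The same hours under SD fall late in a night of 16 h. There 132 genes were higher (1.72%) and 353 lower (4.6%) at ZT0 than at ZT20. In SD ZT0 number 3, 301 genes were listed at 0, against 73 and 75 in the other SD ZT0 libraries. SD ZT4 number 3, which enters the fit that sets the spread, listed 984. The counts of genes called in SD were sensitive to single libraries. They were 48 higher and 156 lower without SD ZT20 number 1, and 40 and 165 without SD ZT20 number 2. Without SD ZT0 number 1 they were 78 and 231, without number 2 they were 59 and 192, and without number 3 the higher count was 75. Of the 277 genes risen in LD, 2 were higher and 24 lower in SD, and of the 1044 fallen in LD, 40 were higher and 20 lower. In SD the median change of the 277 was −0.27. The difference between the changes, LD minus SD, passed in 448 genes with a larger value in LD (5.84%) and 829 with a smaller value (10.8%), in 579 and 625 after median-ratio scaling (7.55% and 8.15%) and in 426 and 652 without LD ZT0 number 3 (5.56% and 8.5%). TOC1 (ostta13g01820) gives an example. At SD it had 14.9, 14.6 and 74.8 FPKM at ZT20 and 141, 137 and 138 FPKM at ZT0, a change of 2.39 (limma adjusted p = 0.0153), where LD fell by 2.59. CCA1 (ostta06g02340) had 52.4, 51.5 and 42.4 FPKM at ZT20 and 31.9, 32.8 and 30.9 FPKM at ZT0 in SD, far below both LD times. SBPase (ostta03g05500) was already high before dawn in SD, with 984, 1066 and 1125 FPKM at ZT20 and 673, 914 and 938 FPKM at ZT0 (change -0.34, limma adjusted p = 0.575). In the plot of both courses the TOC1 mean was highest at ZT8 in SD and at ZT12 in LD, and that of SBPase at ZT20 in SD and at ZT4 in LD.

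**Figure D4:**
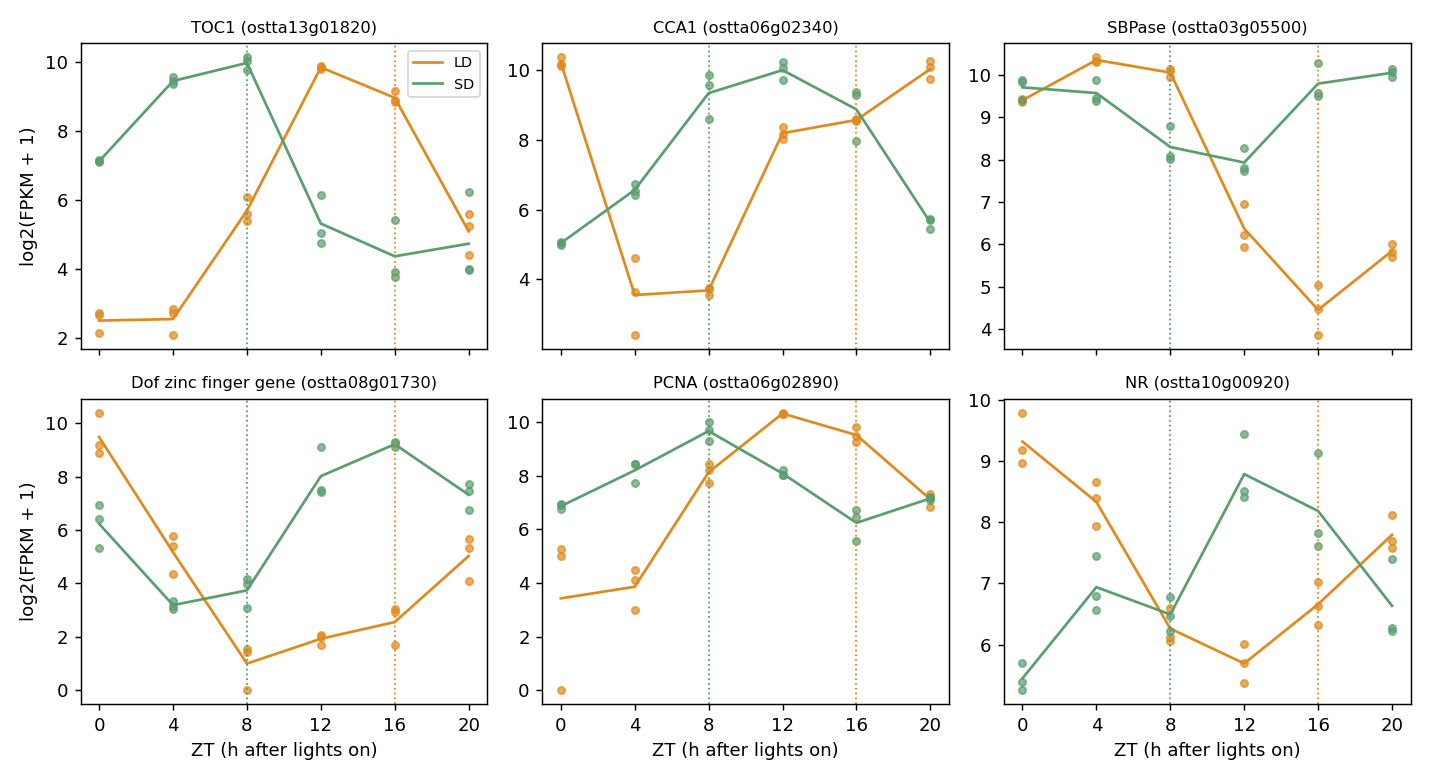
Values of log2(FPKM + 1) (vertical axis) against ZT in hours (horizontal axis) for 6 genes under Long Day (orange) and Short Day (green). Points are single libraries, 3 per time, lines join the means of log values, and dotted lines mark lights off. TOC1, SBPase, PCNA, the Dof gene and NR differ between ZT20 and ZT0 in Long Day, whereas CCA1 is high at both.

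In LL the light never went off. Only 1 gene was higher (0.013%), CDC6 (ostta04g01050), with 0 and 0 FPKM at ZT20 and 6.77 and 8.17 FPKM at ZT0, and 1 gene was lower (0.013%), ostta05g04020, listed at 0 in both ZT0 libraries. At unadjusted p under 0.05, 124 genes differed. The 2 LL ZT0 libraries correlated at r = 0.934 across genes, and number 4 listed 353 genes at 0 against 113 in number 5. The 2 LL ZT20 libraries correlated at r = 0.970, with 132 and 94 genes at 0. With 2 libraries at each time, so few calls do not show that levels stayed the same. Without LL ZT0 number 5, 19 were higher and 105 lower by limma. The change in LD minus the change in LL passed in 97 genes with a larger and 245 with a smaller value in LD (1.26% and 3.2%), after median-ratio scaling in 135 and 161 (1.76% and 2.1%) and without LD ZT0 number 3 in 89 and 241 (1.16% and 3.14%). These counts were 50 and 141 without LL ZT0 number 4, 54 and 115 without LL ZT0 number 5, and 30 and 64 without LL ZT20 number 4. The 277 genes had a median of 0.05 in LL.

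In DD, which shares no library with LD and was listed in a separate table, 1 gene was higher, ostta09g01010 (change 6.56, limma adjusted p = 0.0332), and 0 were lower (0.013% and 0%). Leaving out any 1 of the 4 libraries brought the count to 0. At unadjusted p under 0.05, 1108 genes differed. The median change over all genes was −0.23 and 2412 of the 7668 were positive. The 277 genes risen in LD had a median of 1.08 in DD and 261 of them were positive. The 1044 fallen genes had a median of −0.30 with 309 positive. Median changes in DD were 1.04 for the Calvin cycle list, 1.23 for tetrapyrrole synthesis and 1.27 for nitrogen assimilation. The nitrate genes did not pass in DD. NR (ostta10g00920) had 22.4 and 0.0634 FPKM at ZT20 and 367 and 119 FPKM at ZT0 (limma adjusted p = 0.283), and NIR (ostta10g00930) and NRT2 (ostta10g00950) had adjusted p of 0.293 and 0.299. Light-harvesting genes had a median of 0.97 in DD, against −0.86 in LD. No difference between LD and DD was tested, since the tables were made separately.

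**Figure D5:**
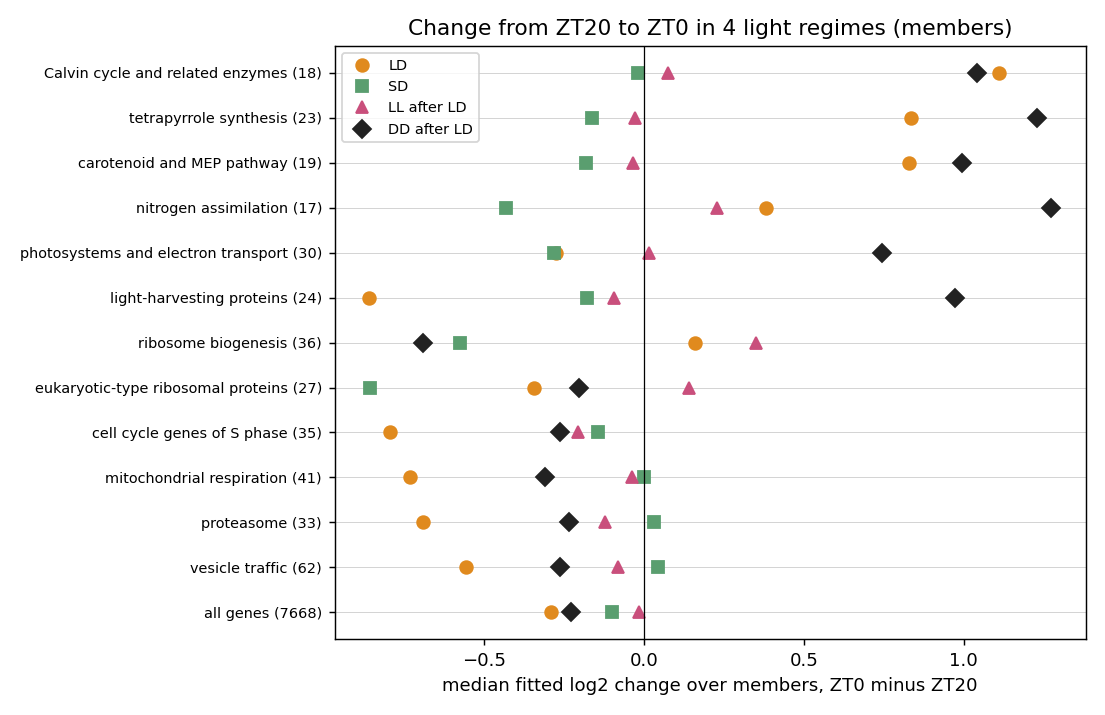
Median fitted change from ZT20 to ZT0 over the members of each list (log2 units, horizontal axis; members in brackets) in Long Day, Short Day, constant light and constant darkness. The Calvin cycle, tetrapyrrole and carotenoid lists lie between 0.83 and 1.23 in Long Day and DD and between −0.18 and 0.07 in SD and LL, and light-harvesting genes lie at −0.86 in Long Day and 0.97 in DD.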

How the data were processed

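RNA was taken from Ostreococcus tauri RCC4221 cultures with a plant RNA kit and sequenced after preparation with a total RNA library kit. Per the study's methods and the submitters' processing notes, the authors checked reads with FastQC, mapped them with HISAT2 and estimated expression with StringTie and Ballgown. The deposited values are FPKM for 7668 genes, made by the authors, in 1 table of 60 libraries and a separate table of the DD libraries. Tool versions are not given in the sources used here. No counts are given, so the depth of a library is known only through estimates for number 3 of LD ZT0, ZT4 and ZT8. The study's methods give a single approximate number of reads for all samples, well above these estimates, and the difference was not examined. Of 182 whole numbers in the file of DD libraries, 181 were divided by 1000, since they then lay nearer the gene's median.

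Values were transformed to log2(FPKM + 1), with a pseudocount of 1 and no filter, and fitted with limma 3.58.1 in R 4.3.3. The fit used group means over the 18 LD libraries, empirical Bayes moderation with a trend, and Benjamini-Hochberg adjustment over all 7668 genes, two-sided, with a threshold of 0.05. A fold on this scale understates the change of low genes. SD, LL and DD were fitted alike, each over its own libraries, and differences between regimes as an interaction over the libraries of both. The members and gene lists were chosen with earlier results of these data known.

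Named genes were the 10 largest rises and 10 largest falls among genes past the threshold with a mean of at least 10 FPKM, no overlap between times and a named annotation, the largest rise and fall without one, and labelled or most changed members of the lists. The RbcS copy and the CCA1, CRY1, VDE and BAM values fall under the labelled members, and CDC6 and the lone LL and DD calls were named after their values were seen. Annotations came from the study's gene tables, and 7661 of the 7668 identifiers matched RefSeq, which gave gene lengths and neighbours and no coordinates, since its assembly is not the one used by the authors. Alternatives were other pseudocounts, a filter of 1 FPKM, upper-quartile and median-ratio scaling, other sets of libraries, array weights, no trend, a replicate block, and each library left out in turn. Median-ratio scaling of SD, LL, DD and the differences, and the joint removal of ZT0 number 3 with that scaling, were chosen after seeing the data.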

Additional observations from a re-analysis of the deposited data

Results flagged for a closer look

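The step from ZT20 to ZT0 differed between LD and SD, by a test of the difference of the changes across all genes (limma, Benjamini-Hochberg adjusted p under 0.05), in 448 genes with a larger and 829 with a smaller value in LD. Against LL the same test gave 97 and 245 genes. Each gene below passed the test against SD, and where a value against LL follows, that test too, and every value is the log2 change in LD minus that in the other regime, so that a positive value means a larger rise in LD.

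Differences from SD among regulators were 5.54 for the Dof-type gene (ostta08g01730) with 4.03 against LL, 3.28 for the second Dof-type gene (ostta04g02850) with 3.46 against LL, 4.33 for the plant-type Myb gene (ostta03g02980) with 4.22 against LL, 2.21 for the SANT/Myb gene (ostta13g00110) with 2.40 against LL and 2.87 for HK (ostta09g02190) with 2.67 against LL. TOC1, which fell in LD and rose in SD, had a difference of -4.98 with -2.13 against LL. In carbon fixation the differences were 3.90 for SBPase (ostta03g05500) with 3.22 against LL, 1.99 for RCA (ostta04g02510) with 2.12 against LL, 2.24 for the class 1 fructose-1,6-bisphosphatase gene (ostta03g00350) with 1.84 against LL, 2.64 for the aldolase gene (ostta04g04420) with 1.97 against LL and 1.35 for PGK (ostta06g00700). Starch genes gave 4.86 for APS (ostta07g03070) with 4.56 against LL, -3.42 for APL (ostta07g03440), 1.44 for SBE (ostta03g00870) and -2.35 for ISA (ostta02g05060) with -1.87 against LL. Among pigment genes they were 2.51 for magnesium chelatase (ostta01g05690) with 2.33 against LL, 2.14 for protoporphyrinogen oxidase (ostta06g03370) with 2.35 against LL, -1.02 for ferrochelatase (ostta11g02670) with -1.23 against LL, -1.58 for the heme oxygenase-type gene (ostta12g00790), 1.91 for HDS (ostta09g00960) with 1.62 against LL, 1.57 for PSY (ostta05g03530) and 1.31 for LCY (ostta14g00700).

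Genes of the photosynthetic membrane had -1.88 for PsbP (ostta14g02630) with -1.95 against LL, 2.74 for Ycf4 (ostta06g03390) with 1.99 against LL, 1.81 for FNR (ostta18g01250), -1.31 for the chlorophyll a/b binding gene that fell (ostta09g04420) with -1.39 against LL and 1.86 for the one that rose (ostta14g00065) with 1.81 against LL. The nitrate genes differed from SD by 2.71 for NR (ostta10g00920), 2.52 for NIR (ostta10g00930), 1.98 for NRT3 (ostta10g00940) and 2.56 for NRT2 (ostta10g00950). Other genes that rose had differences of 5.38 for the flavin amine oxidase (ostta10g02860) with 4.73 against LL, 4.66 for the thioredoxin-like gene (ostta10g00200) with 4.61 against LL, 4.78 for the cytochrome b5-like gene (ostta05g00100) with 3.86 against LL, 2.68 for the rhodanese-like gene (ostta05g04850) with 3.74 against LL, 5.03 for the translation-factor beta-barrel gene (ostta15g00390) with 3.07 against LL, 3.13 for the tRNA synthetase (ostta01g04150), 3.10 for the fatty acid desaturase (ostta03g03040) with 2.35 against LL and 6.00 for the unannotated gene (ostta06g00140) with 4.14 against LL. For the falls in cell division and chromatin they were -3.40 for PCNA (ostta06g02890), -2.62 for SLD (ostta04g00390) with -2.26 against LL, -1.61 for MCM2 (ostta11g00910), -2.50 for Dp (ostta10g01190) with -1.55 against LL, -2.43 for CYCD (ostta18g01570), -2.35 for the histone gene (ostta02g00100) with -2.23 against LL, -4.24 for the first high mobility group gene (ostta06g00100) with -3.14 against LL and -4.16 for the second (ostta05g03120). Remaining falls differed by -5.86 for the ankyrin repeat gene (ostta08g01130), -3.93 for the FKBP-type isomerase (ostta03g03420), -4.00 for the P-loop NTPase (ostta04g03720) with -3.65 against LL, -3.89 for its neighbour (ostta04g03730), -3.49 for the CAAD-domain gene (ostta08g02960), -4.08 for the kinase (ostta09g04190) with -3.54 against LL, -4.68 for the citrate synthase-like gene (ostta17g02090) with -2.70 against LL, -3.23 for the alternative oxidase (ostta16g00930) with -2.11 against LL, -1.63 for the proteasome subunit (ostta03g02880) with -1.48 against LL, -2.20 for the clathrin adaptor (ostta17g01200) with -1.83 against LL, -3.51 for the desaturase that fell (ostta12g01890) and -8.98 for the unannotated gene (ostta08g03950). ZT0 number 3 of LD enters every one of these differences. Without it the difference from SD became -3.44 for the ankyrin repeat gene (ostta08g01130), -2.06 for the FKBP-type isomerase (ostta03g03420), -2.59 for the neighbour of the P-loop NTPase (ostta04g03730), -1.71 for the CAAD-domain gene (ostta08g02960), -1.68 for PCNA (ostta06g02890) and -2.58 for the second high mobility group gene (ostta05g03120), and that from LL became -1.42 for SLD (ostta04g00390), all still called. Calls lost without it were that of PGK (ostta06g00700) against SD, with limma adjusted p = 0.134, and those against LL of the translation-factor beta-barrel gene (ostta15g00390), with 0.0611, TOC1 (ostta13g01820), with 0.0656, the histone gene (ostta02g00100), with 0.0756, and the clathrin adaptor (ostta17g01200), with 0.0747. After median-ratio scaling the calls lost were that of the heme oxygenase-type gene (ostta12g00790) against SD, with limma adjusted p = 0.0842, and those against LL of the histone gene (0.0673), ISA (ostta02g05060, 0.0726), SLD (0.0568) and Dp (ostta10g01190, 0.0656). Without LD ZT0 number 3, 426 genes had a larger and 652 a smaller value in LD than in SD.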

How the results depend on the processing

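Under LD, 277 genes were higher and 1044 lower at ZT0. The lower count was 578 with only the 6 libraries, 1709 with all 60, 646 with median-ratio scaling, 2305 with array weights, and 555 without ZT0 number 3 with that scaling. The higher count was 434 with median-ratio scaling, 994 with array weights and 420 with number 3 left out at every time. In LL the higher count was 0 with a filter of 1 FPKM. LD minus LL gave 164 higher and 483 lower with all 60 libraries, and 161 lower with median-ratio scaling. The cause of these differences was not tested. Leaving out single libraries gave 235 to 271 higher and 687 to 1079 lower in LD, 40 to 147 and 156 to 369 in SD, 1 to 19 and 1 to 105 in LL, 0 and 0 in DD, 339 to 452 and 595 to 946 for LD minus SD, and 30 to 103 and 64 to 330 for LD minus LL. A replicate block gave 292 and 1074 in LD, 199 and 494 in SD, 1 and 1 in LL, 9 and 5 in DD, 520 and 976 for LD minus SD, and 116 and 320 for LD minus LL. The numbers were not taken as pairs in the main fit. Deviations from the group means correlated between same-numbered libraries at r = −0.144, −0.032 and −0.181 across genes. Per the study, sampling began at ZT0, so if the numbers follow the days, ZT20 came after the ZT0 of the same number. Such pairs do not span 1 night. The pairs that would, ZT0 number 2 with ZT20 number 1 and ZT0 number 3 with ZT20 number 2, had r = −0.132 and 0.066. Deviations from a mean of 3 libraries offset each other, so this check cannot decide whether libraries of the same night were alike.

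Of 74 named genes, 64 were called and 46 of these under all 18 alternatives, and 16 lost the call with only the 6 libraries, where fewer samples estimate the spread. No called gene changed sign. Of the genes that were not called, ostta02g02860 (PGK) became 0.16 with upper-quartile scaling, 0.27 with median-ratio scaling and 0.31 without ZT0 number 3 with that scaling, and −0.69 to 0.34 as single libraries were left out. With number 3 left out at every time this PGK gene was called lower (change −0.57, limma adjusted p = 0.0487). GAPDHA (ostta01g01560) became −0.27 with array weights, −0.17 with number 3 left out at every time and −0.056 to 0.61 as single libraries were left out, the lowest without ZT0 number 3. BAM (ostta03g03180) became −0.0064 with number 3 left out at every time and −0.037 to 0.17 as single libraries were left out, and GS (ostta01g05020) had −0.026 to 0.39, the lowest without ZT0 number 3. Genes listed at 0 in a shallow library limit what can be read from falls of low genes.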

Other observations

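The share of genes called in either direction under LD differed between chromosomes. It was lowest on chromosome 19, with 5 of 74 genes (6.76%), and on chromosome 2, with 54 of 536 (10.1%), and lay between 15.1% and 24% on the other 18, beside 17.2% over all genes. The 10 most abundant genes of a library took 11.4%, 12.2% and 13.6% of the summed FPKM at ZT0 and 9.58%, 8.53% and 8.84% at ZT20. The groups did not overlap, and an exact two-sided permutation test of 3 against 3 gave p = 0.1, the smallest it can give. Molybdenum cofactor synthesis, which supplies the cofactor of nitrate reductase, had 2 of 7 genes lower at ZT0 and 0 higher, while NR rose. Of 42 genes of amino acid synthesis 3 rose and 6 fell. Among all genes 3.61% rose and 13.6% fell, and the share of amino acid synthesis genes that fell, 14.3%, lay near that.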
